A study of Rattus norvegicus with 18 samples.

Results

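The experiment set the lungs of newborn rats against fetal lungs from early in the perinatal period, and asked which genes changed the part of their mRNA that sits on large polysomes. It used 12 of the study's 18 arrays, from 6 of its 9 lysates. P1 lungs were taken from Wistar rats 5 h after vaginal birth, and FD19 lungs from Wistar fetuses delivered by Caesarean section on fetal day 19, with 3 lysates a stage and an independent litter behind each lysate. Each lysate was divided. Total RNA was prepared from an aliquot, and polysomal RNA from the sucrose gradient fractions holding mRNAs with more than 7 ribosomes, and both went to Affymetrix Rat Genome 230 2.0 arrays. The 6 arrays of fetal day 22 (FD22) lungs, 3 lysates, enter only as a description. Neither stage carried a mutation or a drug treatment, and stage and route of delivery cannot be told apart.

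An mRNA in use is read by several ribosomes at a time, and the number it carries depends on how often translation starts, how fast ribosomes move and how long the reading frame is. A change of protein output can therefore come from more mRNA, from a larger part of it on polysomes, or from both. Around birth the lung has to make surfactant, clear fluid and meet air, while growth by cell division slows. Some mRNAs carry known control elements at their 5′ end: a pyrimidine run at the first base in ribosomal protein mRNAs, an iron-responsive element in Alas2, and a short reading frame ahead of the main one in Amd1.

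The polysome share used here is log2 polysomal minus log2 total signal of the same lysate, each signal with a constant of 5.4 added. It is relative, because the authors scaled all arrays alike: medians of the 12 arrays were 51.6 to 68.8. A share of 0 means equal signal in both fractions, not that all of the mRNA is on polysomes. These are whole lungs, so fewer cells of a type and less RNA per cell cannot be told apart. Markers of the cells that make up the lung were measured. Total RNA was called higher at P1 for 14 of 19 markers of alveolar type II cells, with 2 lower. For type I cells it was 9 of 12, with 1 lower. It was higher for 11 of 12 of airway cells, 18 of 24 of endothelial cells and 17 of 22 of leukocytes, with 0 lower in each. Smooth muscle and mesenchyme markers were mixed, with 4 of 19 higher and 7 lower. Erythroid markers were more often lower, with 2 of 16 higher and 6 lower. Over all genes 14.5% were called higher and 18.6% lower. The mixture of cells, or the output of each, thus moved with stage.

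No probe set passed the test of the share change at an adjusted p under 0.05 (limma, 3 P1 against 3 FD19 lysates, 20894 probe sets above the signal limit of 40). The smallest adjusted p was 0.0751, shared by 7 probe sets. At an unadjusted p under 0.05 there were 1413 probe sets higher at P1 (6.76%) and 1969 lower (9.42%), together 16.2% of those tested. By gene, with the brightest probe set standing for each of 11331 genes, 913 shares were higher (8.06%) and 1023 lower (9.03%) at that unadjusted p. The 3 P1 lysates lay wholly above the 3 FD19 lysates for 1442 genes (12.7%) and wholly below them for 1440 (12.7%). The median share change over genes was 0.02.

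Restricting the test to brighter probe sets gave calls. This was an alternative setting, taken up throughout only after values were seen, and most other alternatives called no share. With a signal above 95.4 in at least 3 of the 12 arrays, 14265 probe sets remained, and the share was called higher for 73 (0.512%) and lower for 245 (1.72%). Those calls fell on 47 genes higher (0.528% of 8904) and 149 genes lower (1.67%). In what follows, "called under the brighter limit" refers to this test, and the adjusted p printed for a share is from it unless stated. Total and polysomal RNA, each tested on its own arrays, changed far more widely. By gene, total RNA rose for 1641 (14.5%) and fell for 2110 (18.6%). Polysomal RNA rose for 1774 (15.7%) and fell for 2161 (19.1%). By probe set, total RNA was called higher for 2802 and lower for 3230, and the count lower was 2108 without FD19 lysate 3.

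**Figure D1:**
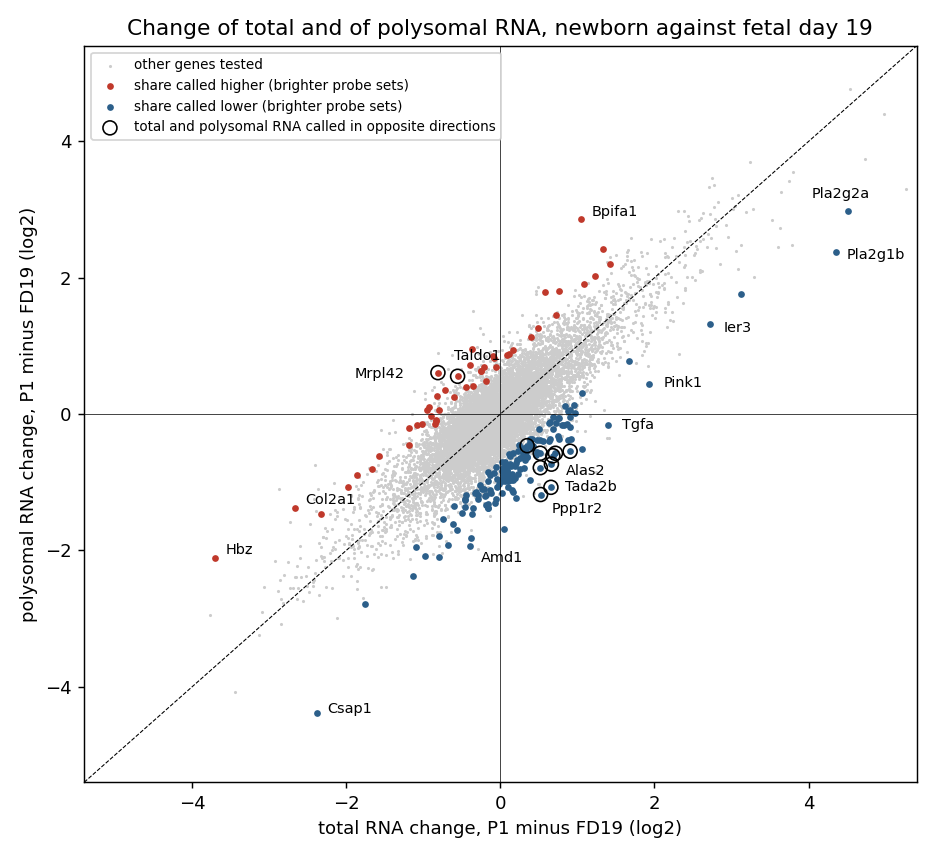
Change of total RNA (horizontal) and of polysomal RNA (vertical), P1 minus FD19 on the log2 scale, for each of 11331 genes; the dashed diagonal marks an unchanged share. Red and blue points are the 47 genes with a share called higher and the 149 called lower under the brighter limit, and rings mark the 11 genes whose total and polysomal RNA were called in opposite directions.

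Total and polysomal RNA moved in opposite directions, each past its own test, in 11 genes. In 9 (0.0794% of genes) total RNA rose while polysomal RNA fell, and in 2 (0.0177%) total RNA fell while polysomal RNA rose. With the replicate number as a block across stages the counts were 15 and 4. Leaving out FD19 lysate 2 gave 5 and 1, FD19 lysate 3 gave 4 and 1, P1 lysate 2 gave 4 and 1, and P1 lysate 3 gave 5 and 3. Ppp1r2, Tmem123, Tmem179b and Taldo1 kept both calls under all 16 alternatives that refitted both fractions. These 11 genes were singled out after their values were seen. The share change is the polysomal change minus the total change on the same arrays, so their choice favours a low p for the share, and the share values given for them are a description.

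Ppp1r2 encodes inhibitor-2, a regulatory partner of protein phosphatase 1. Its total signal was 967, 1124 and 1061 in the P1 lysates, against 708, 778 and 702 in the FD19 lysates. Its polysomal signal was 719, 497 and 517 at P1, against 1110, 1444 and 1362 at FD19. The stages did not overlap in either fraction. Total RNA rose by 0.52 ± 0.11 (log2, SE, adjusted p = 0.00488) and polysomal RNA fell by 1.18 ± 0.17 (adjusted p = 0.00042), so the share differed by -1.70 ± 0.22 (adjusted p = 0.0103). Both other probe sets of Ppp1r2 gave a lower share as well, by -1.64 and -1.56. Their polysomal changes were -1.11 and -1.24. The total rise passed for the first (0.52, adjusted p = 0.0236) but not for the second, dimmer one (0.33, adjusted p = 0.305). Ppp2cb, a catalytic subunit of protein phosphatase 2A, had the smallest share change of the 9, -0.81 ± 0.16 (adjusted p = 0.0348). Its total signal averaged 1224 ± 18.4 at P1 and 963 ± 72.4 at FD19 (SD, n = 3 each), and its polysomal signal 1053 ± 97.0 at P1 and 1450 ± 34.4 at FD19.

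Tmem123, a transmembrane protein gene, had a total signal of 1573, 1191 and 1247 at P1 against 840, 818 and 763 at FD19, and a polysomal signal of 865, 656 and 731 at P1 against 1239, 1019 and 1093 at FD19. Its share was -0.83 ± 0.05 at P1 and 0.46 ± 0.13 at FD19 (SD, n = 3 each), a change of -1.29 ± 0.17 (SE, adjusted p = 0.0103). Tmem179b, Tmem9b and Tm2d2 followed the same order, with share changes of -1.30, -1.45 and -1.09. A dimmer probe set of Tmem179b gave -0.23 with an unadjusted p of 0.596. Tada2b, an adaptor of histone acetyltransferase complexes, changed by -1.73 ± 0.26 in share (adjusted p = 0.0136), with FD19 lysate 1 far above the other FD19 lysates at 1.36 against 0.40 and 0.51.

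Insig1 retains the sterol-sensing SREBP complex in the endoplasmic reticulum. Its total signal was 803, 543 and 706 at P1, against 427, 413 and 416 at FD19, and its polysomal signal 372, 253 and 332 at P1, against 454, 442 and 565 at FD19. The P1 shares were nearly equal, -1.10, -1.08 and -1.08, and all FD19 shares were above 0, at 0.09, 0.10 and 0.43. The share change was -1.29 ± 0.19 (adjusted p = 0.0132). The total and polysomal calls were not both kept without FD19 lysate 3 or without P1 lysate 2.

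Alas2 is the first enzyme of haem synthesis in red cell precursors, and its mRNA carries an iron-responsive element in the leader. Total signal was 2644, 2078 and 2853 at P1 against 2000, 1580 and 1246 at FD19, and polysomal signal 618, 635 and 798 at P1 against 1259, 1258 and 919 at FD19. The share was -2.09, -1.70 and -1.83 at P1, wholly below -0.67, -0.33 and -0.44 at FD19, a change of -1.40 ± 0.23 (adjusted p = 0.0161). The total call was lost without FD19 lysate 3 (adjusted p = 0.0644) and without P1 lysate 3 (adjusted p = 0.0589). The other measured mRNAs with such an element in the leader, Slc40a1 (the iron exporter ferroportin) and Epas1 (a hypoxia-inducible factor subunit), differed by -0.30 and -0.23 in share, with unadjusted p of 0.156 and 0.278, while their total RNA rose by 1.28 and 1.80. The other probe sets of Slc40a1 differed from each other, with share changes of -1.22 (unadjusted p of 0.000898) and -0.17 (unadjusted p of 0.497). Summed over the erythroid markers, total signal was 10500 to 14050 at P1 and 15610 to 16800 at FD19, with 2 of 16 markers called higher and 6 lower, and the part of this in the Alas2 values was not tested.

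In the reverse order were a metabolic enzyme and a mitochondrial ribosomal protein. Taldo1, transaldolase of the pentose phosphate pathway, had a total signal of 422, 363 and 348 at P1 against 616, 509 and 546 at FD19, and a polysomal signal of 990, 1227 and 1048 at P1 against 641, 805 and 774 at FD19. Its share was 1.11 ± 0.24 higher at P1 (adjusted p = 0.0343). Mrpl42, of the large subunit of the mitochondrial ribosome, had a total signal of 159, 205 and 256 at P1 against 368, 380 and 333 at FD19, while its polysomal signal was 228, 263 and 212 at P1 against 179, 141 and 138 at FD19. The share of Mrpl42 was 1.42 ± 0.25 higher (adjusted p = 0.0189).

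**Figure D2:**
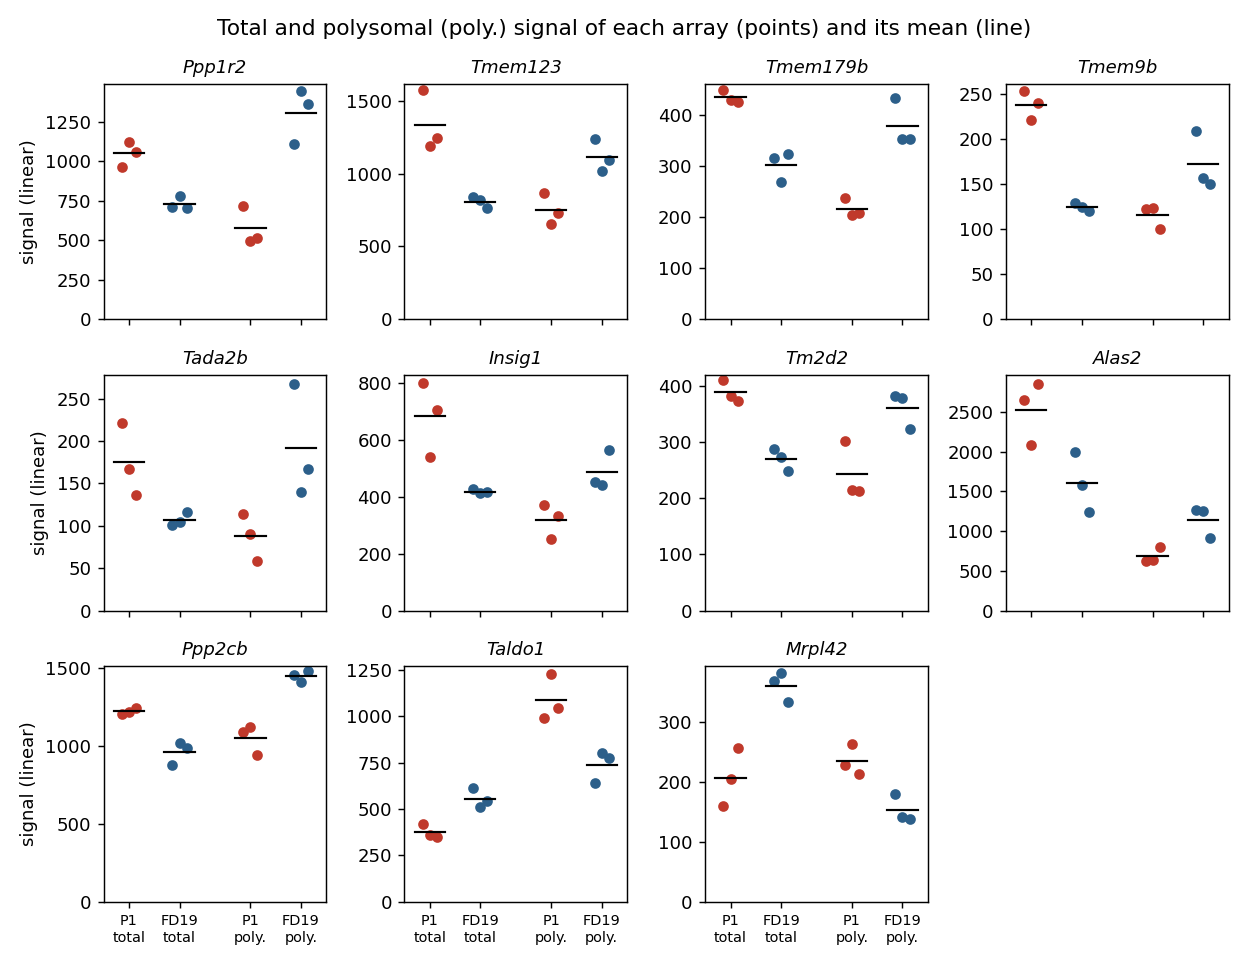
Signal (linear, from 0) of the 11 genes whose total and polysomal RNA were called in opposite directions, with P1 arrays in red left of FD19 arrays in blue for each fraction; points are single arrays and lines their means (n = 3). In the first 9 panels P1 stands above FD19 in total RNA and below it in polysomal RNA, and Taldo1 and Mrpl42 show the reverse.

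Amd1 encodes S-adenosylmethionine decarboxylase, which supplies the aminopropyl groups for polyamine synthesis. In mammals its mRNA is known for a very short reading frame near the 5′ end whose translation responds to polyamines. The bases at the annotated start are shown because that frame lies within them (RefSeq, GRCr8, chr20:45265951-45265980, minus strand, capitals mark an ATG followed in frame by a stop codon):
Amd1: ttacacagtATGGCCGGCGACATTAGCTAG
The printed stretch begins at base 3 after the annotated start. Searching the 50 bases after each annotated start on the transcribed strand, an ATG with an in-frame TAA, TAG or TGA was present in 4107 of 33469 entries (12.3%), and in 593 of 9412 tested genes with an entry (6.3%), so its presence alone singles out no gene. Polysomal signal of Amd1 was 168, 149 and 149 at P1, against 715, 597 and 526 at FD19. Total signal was 362, 335 and 343 at P1, against 557, 395 and 433 at FD19. Polysomal RNA fell by 1.93 ± 0.16 (adjusted p = 1.48e-05), whereas the total change of -0.39 ± 0.14 did not pass (adjusted p = 0.0637). The share was -1.13 ± 0.05 at P1 and 0.41 ± 0.16 at FD19 (SD, n = 3 each), a change of -1.54 ± 0.18 (SE, adjusted p = 0.00778, and 0.0751 over all 20894 probe sets).

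Rises of total RNA met a lower share more often than a higher one, though the count depended on which fraction chose the genes. Among the 1641 genes whose total RNA rose, the median change was 0.83 in total RNA and 0.77 in polysomal RNA, with a median share change of -0.09, and 245 shares were lower (14.9%) against 96 higher (5.85%) at an unadjusted p under 0.05. For the 110 that rose more than 4-fold, the medians were 2.47, 2.37 and -0.21, with 24 lower (21.8%) and 3 higher (2.73%). Choosing by the other fraction turned the order round: of 1774 genes whose polysomal RNA rose, 312 shares were higher (17.6%) and 80 lower (4.51%), and the median share change was 0.17. For polysomal rises above 4-fold, 111 genes, it was 0.15, with 21 higher and 13 lower. Selection and share use the same arrays in both cases, so these counts describe the genes and test nothing. Most rises reached the polysomes: of the 1641, polysomal RNA rose too for 1185, was not called for 447 and fell for 9. A rise of total RNA together with a share called lower was found for 0 genes over all probe sets and for 47 under the brighter limit, when total RNA was tested within that limit as well.

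Of the 149 genes with a share called lower under the brighter limit, total RNA over all probe sets had risen for 46. Tgfa, a ligand of the epidermal growth factor receptor, had a total signal of 209, 224 and 247 at P1, against 56.6, 105 and 95.2 at FD19, a rise of 1.39 ± 0.21 (adjusted p = 0.000844). Its polysomal signal was 83.6, 91.0 and 115 at P1, against 78.2, 128 and 123 at FD19, and the change of -0.16 ± 0.21 did not pass (adjusted p = 0.627). The share difference was -1.55 ± 0.18 (adjusted p = 0.00778), and a second probe set gave -1.33. Areg, another ligand of that receptor, had a total signal of 126, 176 and 127 at P1, against 13.7, 4.6 and 3.3 at FD19. It rose by 3.63 in total RNA and 2.73 in polysomal RNA, and its share change of -0.90 did not pass (adjusted p = 0.152).

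Pink1, a mitochondrial kinase that marks damaged mitochondria for removal, had a total signal of 784, 590 and 566 at P1, against 186, 184 and 130 at FD19. Its polysomal signal was 385, 307 and 279 at P1, against 228, 214 and 264 at FD19, so a total rise of 1.92 stood beside a polysomal change of 0.44 that missed the threshold (adjusted p = 0.0638). Its share changed by -1.48 ± 0.23 (adjusted p = 0.0149). Ier3, an immediate early gene of the stress response, rose by 2.71 in total RNA and 1.31 in polysomal RNA. Its polysomal signal was 302, 259 and 216 at P1, against 100, 105 and 94.9 at FD19, and the share change was -1.40 ± 0.27 (adjusted p = 0.0257). Tatdn2, a TatD-type nuclease gene, rose by 1.07 in total RNA and differed by -0.51 in polysomal RNA (adjusted p = 0.107), with a share change of -1.58 ± 0.19 (adjusted p = 0.00838).

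The 10 lowest share changes under the brighter limit included 3 genes of secreted phospholipases A2, enzymes which release fatty acids from phospholipids. They were picked after the values were seen, other members of the family were not counted, and their total RNA did not move alike. Pla2g1b had a total signal of 1847, 1814 and 2232 at P1, against 73.4, 96.7 and 104 at FD19, and a polysomal signal of 512, 488 and 280 at P1, against 51.9, 50.8 and 156 at FD19. Total RNA rose by 4.36 and polysomal RNA by 2.38, and the share changed by -1.98 ± 0.44 (adjusted p = 0.0348). Pla2g2a rose by 4.51 in total RNA and 2.98 in polysomal RNA, with a share change of -1.53 ± 0.31 (adjusted p = 0.0287). However, its FD19 total signals were 27.1, 6.5 and 26.3, close to the constant. Its FD19 polysomal signals were 91.4, 40.2 and 178.8, so Pla2g2a met the brighter limit through P1 arrays, where it is high. Pla2g12a had a total change of 0.05 (adjusted p = 0.875), and its polysomal RNA fell by 1.68, with signals of 87.8, 30.5 and 53.1 at P1 against 260, 155 and 146 at FD19. Its share change was -1.73 ± 0.35 (adjusted p = 0.0294).

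The surfactant protein mRNAs Sftpa1, Sftpb and Sftpd rose in both fractions. Total RNA of Sftpa1 rose by 2.23 ± 0.12, of Sftpb by 2.14 ± 0.12 and of Sftpd by 1.72 ± 0.10, while their polysomal RNA rose by 1.5, 1.49 and 1.34. Sftpa1 polysomal signal was 4101, 4899 and 4764 at P1, against 1385, 1600 and 1911 at FD19. Its share was 0.26 ± 0.21 at P1 and 0.99 ± 0.04 at FD19 (SD, n = 3 each), with no overlap, and the change of -0.73 ± 0.17 just missed the threshold (adjusted p = 0.0508). A second Sftpa1 probe set gave -0.77. The share changes of Sftpb (-0.64, adjusted p = 0.113) and Sftpd (-0.38, adjusted p = 0.4) did not pass, and a second Sftpb probe set gave -0.0042. Sftpc, which encodes the small hydrophobic surfactant protein C, passed in neither fraction: its total change was 0.21 and its share change 0.19. Its total signal was 5301, 7142 and 7433 at P1, against 5288, 5673 and 6008 at FD19. Hbb ran beside it at P1, at 5387, 7618 and 7809. Whether signals this high still register a change was not tested. Of the 19 type II markers measured, 4 had a lower share (Sftpa1, Sftpb, Lyz2 and Ctsh) and 1 a higher share at an unadjusted p under 0.05, and the list's median share change was -0.0019. Scgb3a1, a secretoglobin of airway cells, rose by 3.29 in total RNA and 2.01 in polysomal RNA, with a share change of -1.28 ± 0.36 that did not pass (adjusted p = 0.0664).

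Falls of total RNA met a higher share more often. Among the 2110 genes whose total RNA fell, 343 shares were higher (16.3%) and 123 lower (5.83%) at an unadjusted p under 0.05, with a median share change of 0.14. Among the 2161 whose polysomal RNA fell, 514 were lower (23.8%) and 90 higher (4.16%), with a median of -0.19. Of the 47 genes with a share called higher under the brighter limit, total RNA had fallen for 23. Copb2, a subunit of the COPI coat of Golgi vesicles, had a total signal of 411, 426 and 476 at P1, against 673, 745 and 754 at FD19, a fall of 0.72 on the log2 scale. Its polysomal signal was 527, 581 and 651 at P1, against 365, 514 and 506 at FD19, which did not pass (adjusted p = 0.134). The share was 1.07 ± 0.17 higher (adjusted p = 0.0172), with P1 shares of 0.36, 0.44 and 0.45 all above FD19 shares of -0.87, -0.53 and -0.57.

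Col2a1, the collagen of cartilage, had a total signal of 121, 86.4 and 157 at P1, against 1389, 557 and 614 at FD19, and a polysomal signal of 173, 93.9 and 174 at P1, against 764, 223 and 308 at FD19. Total RNA fell by 2.67 and polysomal RNA fell by 1.37, and the share was 1.30 ± 0.21 higher (adjusted p = 0.0156). A dimmer Col2a1 probe set gave a share change of 0.33 (unadjusted p of 0.442). The dimmest gave 1.65, with a polysomal change of 0.55 that did not pass (adjusted p = 0.297). FD19 lysate 1 was far above the others in both fractions. Cartilage markers summed to 614.1 to 855.1 in total signal at P1 and 1693 to 2944 at FD19, with 0 of 12 called higher and 5 lower, and the part of this in the Col2a1 values was not tested. The globin genes Hbz and Hbe1, used by embryonic red cells, fell in both fractions too. For Hbe2, an epsilon-type globin gene, total RNA rose by 0.71 (adjusted p = 0.0240) and the polysomal change was -0.12 (adjusted p = 0.757). The total call of Hbe2 was lost when any of FD19 lysates 2 and 3 or P1 lysates 2 and 3 was left out. Hbz had a total signal of 4.5, 2.1 and 4.7 at P1, against 98.3, 125 and 116 at FD19. Its share change of 1.59 ± 0.24 (adjusted p = 0.0136) rests on P1 signals below the constant of 5.4 in both fractions, so the P1 share is close to 0 by construction. Hbe1 was measured at both stages: polysomal signal was 68.4, 75.7 and 143 at P1 against 730, 782 and 687 at FD19, and the share was -1.15 ± 0.28 at P1 and -1.98 ± 0.21 at FD19 (SD, n = 3 each), a difference of 0.83 that did not pass (adjusted p = 0.0936). Adult Hbb, a beta-globin, passed in neither fraction (total change -0.10, share change 0.41). Its total signal was 6934, 7334 and 7832 at FD19, and whether signals this high still register a change was not tested.

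Total and polysomal RNA both rose, and the share was called higher under the brighter limit, in 9 genes. Bpifa1, a secreted defence protein of the airway surface, had a polysomal signal of 262, 164 and 535 at P1, against 32.5, 24 and 52.6 at FD19, and a total signal of 95.4, 90.0 and 179 at P1, against 39.2, 68.6 and 56.4 at FD19. Its share was 1.81 ± 0.34 higher (adjusted p = 0.0251). All its FD19 signals were below the brighter limit of 95.4, so it entered that test only through P1 arrays, where it is high. Egfl7, a factor secreted by endothelial cells, rose by 2.19 in polysomal RNA and 1.42 in total RNA, with a share 0.77 ± 0.17 higher (adjusted p = 0.0439), and a second probe set gave 0.92. Nostrin, a trafficking partner of endothelial nitric oxide synthase, rose by 1.79 in polysomal RNA and 0.58 in total RNA, a share difference of 1.21 ± 0.28 (adjusted p = 0.0417). As a list, the 24 endothelial markers measured had a median share change of -0.03, with 1 higher and 2 lower at an unadjusted p under 0.05. Anxa11, an annexin that binds membranes in the presence of calcium, rose by 1.26 in polysomal RNA and 0.49 in total RNA, with a share 0.77 ± 0.17 higher (adjusted p = 0.0439). Cpne8, a copine and likewise a calcium-dependent membrane-binding protein, had a share change of 1.08 ± 0.23 (adjusted p = 0.0348), but another probe set of the gene gave -0.04, so its value depends on the probe set. Like Bpifa1, it passed the brighter limit only through P1 arrays.

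Both fractions fell and the share was called lower in 16 genes. Dctd, deoxycytidylate deaminase, which feeds thymidine nucleotide synthesis, had a polysomal signal of 48.2, 63.3 and 57.6 at P1, against 359, 312 and 279 at FD19, and a total signal of 106, 90.7 and 112 at P1, against 264, 224 and 211 at FD19. Polysomal RNA fell by 2.38 and total RNA fell by 1.14, a share change of -1.24 ± 0.20 (adjusted p = 0.0156). Copz2, another subunit of the COPI coat, fell by 1.69 in polysomal RNA and 0.56 in total RNA, with a share change of -1.13 ± 0.16 (adjusted p = 0.0136), opposite in sign to Copb2. Aard had a polysomal signal of 49.0, 45.4 and 37.4 at P1, against 222, 189 and 200.3 at FD19, and a share change of -1.11 ± 0.16 (adjusted p = 0.0149). Csap1 fell by 4.38 in polysomal RNA, with signals of 3.1, 1.4 and 1.6 at P1 against 147, 140 and 159 at FD19, so its P1 share, like that of Hbz, is set largely by the constant. Aard, Csap1 and Hbz passed the brighter limit only through FD19 arrays.

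For 87 of the 149 lower shares and 15 of the 47 higher ones, total RNA was not called. Those named here had an unadjusted p above 0.2 for the total change, except Srek1ip1 and Cysrt1, and Frmd4b and Cysrt1 are not among the genes called. Lower shares of this kind included Zcrb1, an RNA-binding protein of the minor spliceosome. It had a polysomal signal of 90.5, 93.3 and 76.2 at P1, against 214, 177 and 189 at FD19, beside a total signal of 142, 161 and 128 at P1, against 138, 112 and 139 at FD19. Its share change was -1.26 ± 0.16 (adjusted p = 0.0103). Ube2m, the conjugating enzyme for the ubiquitin-like protein NEDD8, changed by -1.23 ± 0.18 in share (adjusted p = 0.0136) and by -0.07 ± 0.14 in total RNA. Tm2d1, a membrane protein related to Tm2d2, changed by -1.30 ± 0.20 in share (adjusted p = 0.0149), and both of its other probe sets were lower as well, by -1.63 and -1.06. Sec11c, a catalytic subunit of the signal peptidase, changed by -1.10 ± 0.18 (adjusted p = 0.0174), and Chpt1, which makes phosphatidylcholine, by -1.04 ± 0.23 (adjusted p = 0.0358). Frmd4b, a scaffold protein, is below the brighter limit. Its share change of -1.59 did not pass over all probe sets (adjusted p = 0.0853), and a second probe set gave -0.04.

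Among the higher shares of this kind was Cars1, which charges tRNA with cysteine. It had a polysomal signal of 210, 176 and 235 at P1, against 97.2, 120 and 121 at FD19, with a total signal of 175, 159 and 190 at P1, against 178, 184 and 200 at FD19. Its share was 0.94 ± 0.17 higher (adjusted p = 0.0257). Other Cars1 probe sets gave 0.84, 0.41 and, for the dimmest, -0.10. Rtcb, the ligase that joins spliced tRNA fragments, had a share 0.79 ± 0.17 higher (adjusted p = 0.0401). Mertk, a receptor for the uptake of dying cells, changed by 0.89 ± 0.17 (adjusted p = 0.0297). Like Bpifa1 and Cpne8, Mertk passed the brighter limit only through P1 arrays. Hdgfl2, a chromatin-binding protein, changed by 0.91 ± 0.18 (adjusted p = 0.0294). Srek1ip1, which interacts with a splicing regulator, had a polysomal signal of 256, 347 and 232 at P1, against 154, 113 and 156 at FD19, and a share 1.31 ± 0.23 higher (adjusted p = 0.0193), with a total change of -0.36 that did not pass (adjusted p = 0.274). Cysrt1, which is below the brighter limit and whose total RNA fell by 0.98, had a share change of 1.29 with an adjusted p of 0.086 over all probe sets.

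**Figure D3:**
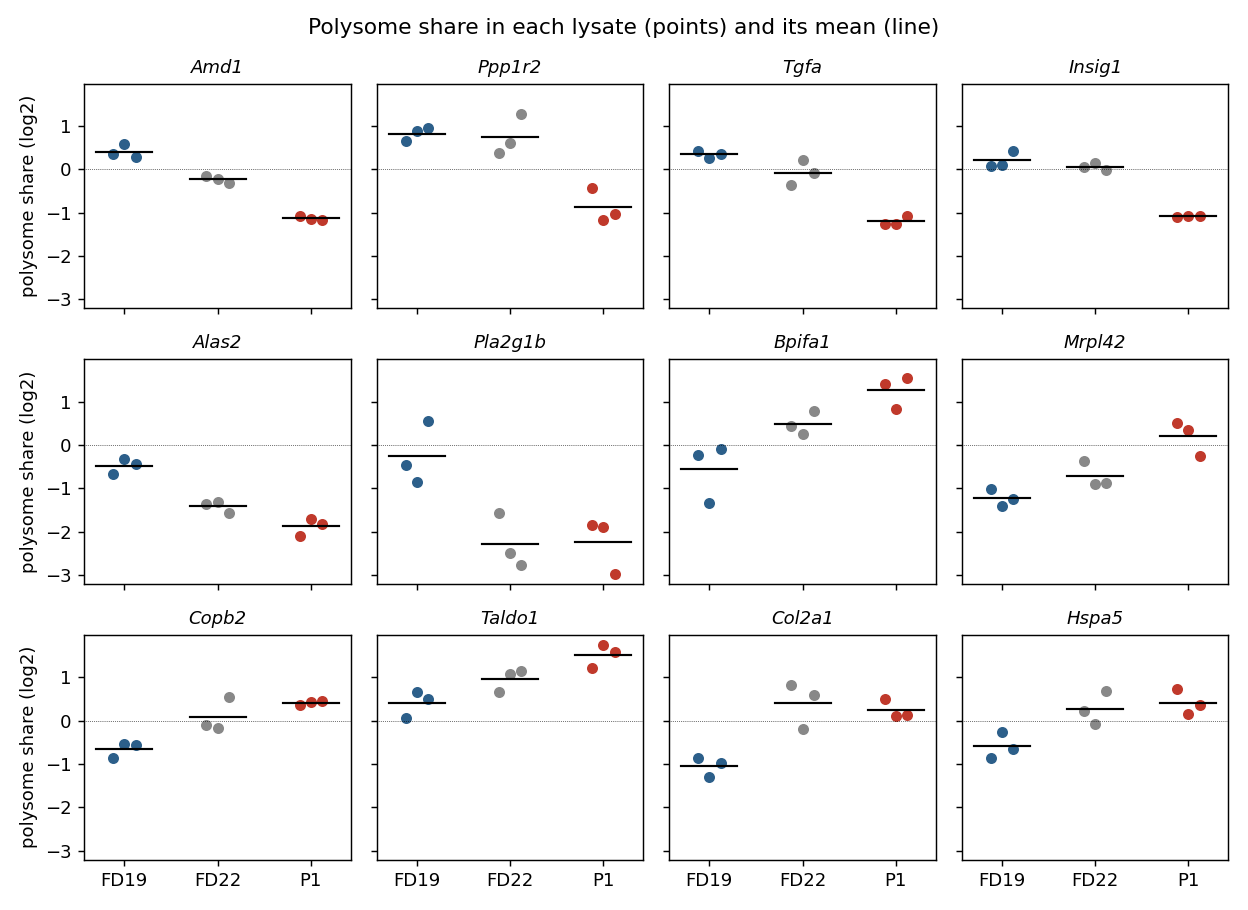
Polysome share (log2 polysomal minus log2 total) of 12 genes in each lysate of FD19 (blue), FD22 (grey) and P1 (red), with lines at the means (n = 3). In the first 6 panels (Amd1 to Pla2g1b) the P1 lysates lie below the FD19 lysates, and in the last 6 (Bpifa1 to Hspa5) above them.

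Gene lists by function were counted at an unadjusted p under 0.05, beside 8.06% higher and 9.03% lower over all genes. Proteasome subunits leaned to a higher share: 12 of 36 were higher (33.3%) and 0 lower, with a median change of 0.34. The median over the alternatives lay between 0.19 and 0.41. The count was 4 without FD19 lysate 1, 4 without FD19 lysate 3, 6 without P1 lysate 1 and 6 without P1 lysate 2. Psmb5, which holds one of the protein-cutting sites, had a total signal of 1120, 1345 and 1410 at P1 against 2081, 1845 and 1902 at FD19, and a polysomal signal of 1561, 2549 and 2653 at P1 against 1784, 1865 and 2256 at FD19. Total RNA of 15 of the 36 fell, whereas polysomal RNA fell for 1 and rose for 2. None of the 36 was called in share under the brighter limit.

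Extracellular matrix genes were higher in share for 15 of 50 (30%) and lower for 0, with a median of 0.36 and between 0.28 and 0.39 over the alternatives. The count was 10 with any of FD19 lysate 1, P1 lysate 1 or P1 lysate 3 left out, and 5 with both lysates numbered 1 left out. Fn1, fibronectin, had a polysomal signal of 2588, 2803 and 2666 at P1, against 1013, 793 and 1071 at FD19, and a total signal of 3414, 3228 and 3678 at P1, against 2244, 1788 and 2166 at FD19. Its share difference of 0.75 ± 0.20 did not pass (adjusted p = 0.0557). Tnc, tenascin-C, was the member called under the brighter limit, with a share 0.74 ± 0.18 higher (adjusted p = 0.0482) and shares of 0.00, 0.03 and 0.06 at P1 against -0.77, -0.82 and -0.54 at FD19. Loxl2, a collagen crosslinking enzyme, differed by 0.98 (adjusted p = 0.0761), although another of its probe sets gave -0.01. Fbn2, fibrillin-2 of elastic microfibrils, fell by 1.44 in total RNA and 0.52 in polysomal RNA, with a share difference of 0.92 (adjusted p = 0.0530).

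Cell division genes fell almost throughout. Total RNA fell for 49 of 51 and polysomal RNA for 49, with median changes of -1.84 and -1.71. The share was higher for 12 (23.5%) and lower for 2 (3.92%), with a median of 0.20, and the count higher was 7 without FD19 lysate 1 or without P1 lysate 3. Racgap1, which acts in cytokinesis, had a total signal of 118, 150 and 165 at P1, against 780, 729 and 712 at FD19, and a polysomal signal of 268, 250 and 305 at P1, against 800, 822 and 677 at FD19. Its share was 0.87 ± 0.17 higher (adjusted p = 0.0343), though a dimmer probe set gave 0.38 with an unadjusted p of 0.286. Mcm6, a subunit of the replicative helicase, had a share 0.91 ± 0.20 higher (adjusted p = 0.0435).

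Genes of the endoplasmic reticulum divided: 10 of 34 had a higher share (29.4%) and 4 a lower one (11.8%). The count higher was 6 without FD19 lysate 1 or without P1 lysate 2. Hspa5, the main chaperone of the lumen, had a total signal of 1117, 1773 and 1459 at P1, against 2659, 2638 and 2986 at FD19, while its polysomal signal was 1868, 1964 and 1886 at P1, against 1460, 2214 and 1892 at FD19. Total RNA fell by 0.95, polysomal RNA differed by 0.06 (adjusted p = 0.808), and the share was 1.01 ± 0.23 higher (adjusted p = 0.0416). The mitochondrial chaperone Hspd1 showed the same order, with a total fall of 1.02, a polysomal change of -0.14 (adjusted p = 0.385) and a share 0.87 ± 0.18 higher (adjusted p = 0.0375). In contrast, Manf, a secreted protein induced by endoplasmic reticulum stress, had a share change of -0.88 ± 0.19 (adjusted p = 0.0407).

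Ribosomal protein mRNAs are the textbook case of control at the first bases, and 4 annotated starts are shown with their pyrimidine run in capitals (RefSeq, GRCr8, at chr1:172974573-172974592, chr2:23814517-23814536, chr9:81748091-81748110 and chr10:83519064-83519083, all plus strand):
Rpl27a: TCCTCCCTCTTTCTTTTCTg
Rps23: TCTCTTCTCTCTTTCTCTCg
Rpl37a: CTCTTCCTCTTCgggcttgg
Rpl19: CTTTCCTTTCgctgctgcgt
An unbroken run of at least 5 C or T from the annotated start on the transcribed strand was present in 17 of 41 ribosomal protein genes with an entry (41.5%), against 3.99% of tested genes and 4.75% of all entries. The first base could be C or T, and it is T in Rpl27a and Rps23. Whether the annotated start is the first base of the mRNA was not tested. Of 45 cytosolic ribosomal protein genes, 1 share was higher and 1 lower at an unadjusted p under 0.05 (2.22% each). The median change was 0.19, but -0.18 after quantile normalization, 0.06 without P1 lysate 2 and 0.33 without P1 lysate 3, so its direction depends on scaling. Rpl19 had shares of -0.43, -0.22 and -0.85 at P1, against -0.60, -0.68 and -0.81 at FD19, which overlap. Rps23, with a total signal of 5418, 6903 and 7519 at P1, was about as bright as Sftpc. Whether a change still registers at such signals was not tested. Rpl37a stood lower in share at both stages, at -1.45 ± 0.28 at P1 and -1.72 ± 0.15 at FD19 (SD, n = 3 each). Other mRNAs listed as having such a start, which was not counted in their sequences here, had 1 of 15 higher and 0 lower. Initiation factors had 4 of 49 higher and 0 lower, and mitochondrial ribosomal proteins 6 of 73 in each direction. These counts moved with single lysates. The initiation factor count higher was 2 without FD19 lysate 3 or without P1 lysate 3, and the mitochondrial count higher was 2 without FD19 lysate 2 or FD19 lysate 3, 3 without P1 lysate 1 and 10 without P1 lysate 3. The count higher for the other mRNAs listed as having such a start was 0 without FD19 lysate 1, P1 lysate 1 or P1 lysate 2. Under the brighter limit the mitochondrial list had 1 share called higher, Mrpl42, and 1 called lower, Mrps18a of the small subunit (-0.83, adjusted p = 0.0486).

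Respiratory chain genes had 12 of 79 shares higher (15.2%) and 5 lower (6.33%), with a median of 0.11 that was -0.0032 without P1 lysate 2. The count higher was 4 without FD19 lysate 3, below the 6 then lower, 7 without P1 lysate 2 and 3 with both lysates numbered 1 left out. The count lower was 3 without FD19 lysate 1 or without P1 lysate 3. Lipid and sterol synthesis genes had 4 of 34 in each direction (11.8%), and the count higher was 1 without FD19 lysate 3 and 2 without FD19 lysate 1 or any 1 P1 lysate. Of 36 immediate early genes, total RNA rose for 23, and the share was higher for 1 (2.78%) and lower for 5 (13.9%), a count that was 1 without FD19 lysate 3 or without P1 lysate 1, 3 without P1 lysate 2 and 2 without P1 lysate 3.

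Some lists of fewer than 20 measured genes also stood off the background, by a few genes each. Airway markers had 3 of 12 shares higher (25%) and 2 lower (16.7%), and the count lower was 1 without FD19 lysate 3, without P1 lysate 2 or without P1 lysate 3. Smooth muscle and mesenchyme markers had 4 of 19 higher (21.1%) and 1 lower (5.26%), and the count higher was 2 without FD19 lysate 1, FD19 lysate 3 or P1 lysate 3. Markers of neighbouring tissues had 4 of 19 higher (21.1%) and 1 lower (5.26%), but the count higher was 1 without FD19 lysate 1 and 2 without any 1 of the other 5 lysates. Heat shock proteins had 3 of 15 higher (20%) and 0 lower, with a median of 0.18. Type II markers, described above, had 21.1% lower.

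Noncoding RNAs give a view of the polysomal fraction from RNAs without a long reading frame. All 6 measured had a negative share change, with a median of -0.48, and 2 were lower at an unadjusted p under 0.05, a count that was 3 without FD19 lysate 1 and otherwise 1 or 2 with 1 lysate left out. H19, an imprinted noncoding RNA of fetal tissue, had a polysomal signal of 376, 324 and 305 at P1, against 1911, 708 and 792 at FD19, and a total signal of 2308, 2133 and 2130 at P1, against 4630, 3599 and 3890 at FD19. Its share was -2.69 ± 0.09 at P1 and -1.97 ± 0.60 at FD19 (SD, n = 3 each), and the change of -0.73 did not pass (adjusted p = 0.245). FD19 lysate 1 stood apart, at -1.27 beside -2.34 and -2.29. Snhg11, a host transcript of small nucleolar RNAs, had a share change of -1.13 (adjusted p = 0.0865), while 2 of its 3 other probe sets were positive. Igf2, the fetal growth factor next to H19, fell by 1.07 in total RNA and 1.15 in polysomal RNA, with a share change of -0.08.

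**Figure D4:**
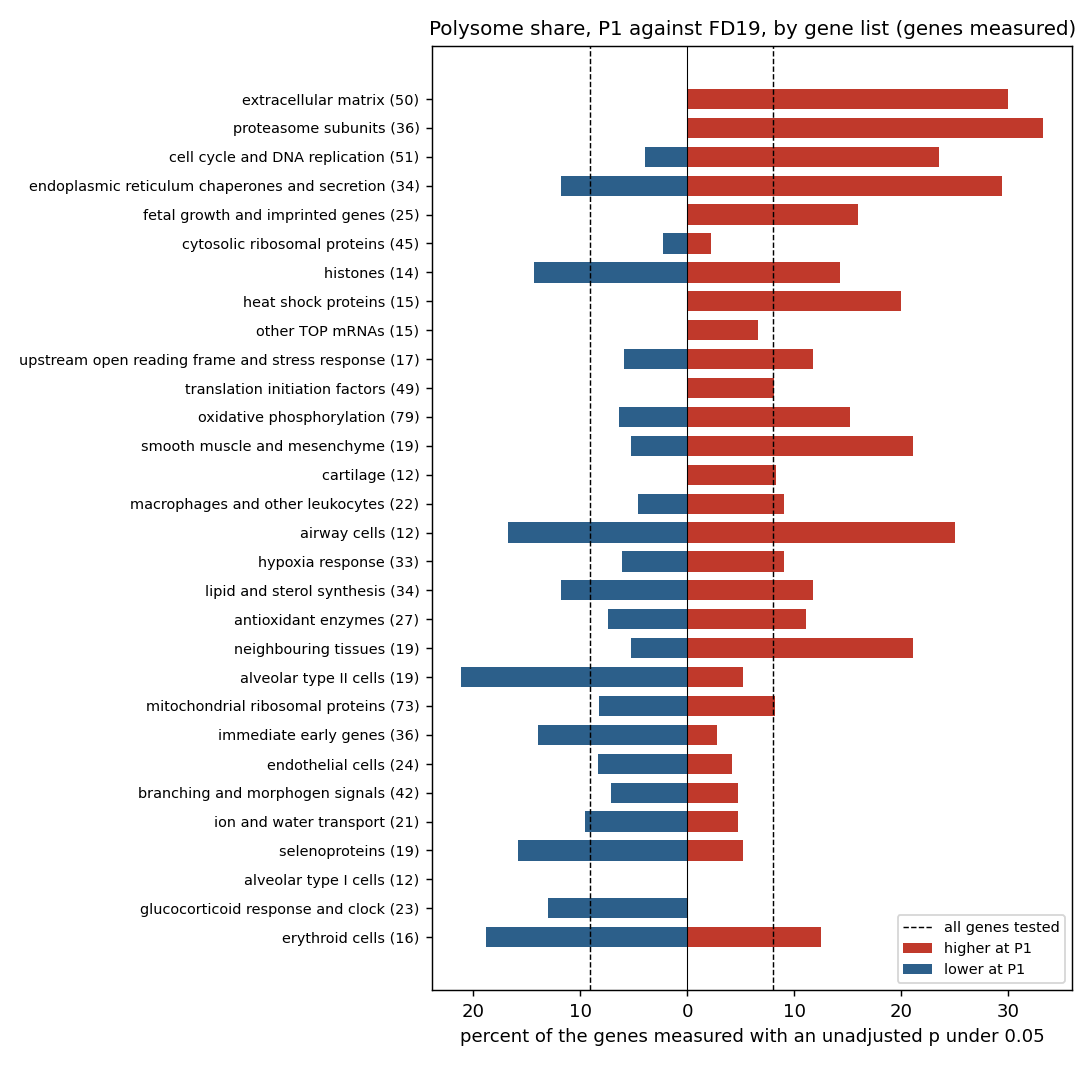
Percent of the measured genes of each list with a polysome share higher (red, to the right) or lower (blue, to the left) at P1 than at FD19 at an unadjusted p under 0.05; dashed lines mark 8.06% and 9.03%, the values over all genes tested. Lists with at least 10 measured genes are ordered by their median share change, with extracellular matrix and proteasome at the top.

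The FD22 lysates, which the test did not use, are set beside the other stages as a description. The called genes were chosen for a wide gap between their FD19 and P1 shares. Another stage falls between such means readily, so the counts between are no evidence of a gradual course. Of the 149 genes with a share called lower under the brighter limit, the FD22 mean lay between the FD19 and P1 means in 130 and nearer to FD19 in 122. Their median share was 0.47 at FD19, 0.19 at FD22 and -0.59 at P1. Of the 47 called higher, FD22 lay between the other stages in 43 and nearer to FD19 in 15, with medians of -0.46 at FD19, 0.09 at FD22 and 0.49 at P1. Over all 11331 genes the mean of FD22 lay between in 5161 and nearer to FD19 in 5792. No gap between FD19 and P1 was required of these, so they are no matched background for the called genes. The share of Insig1 was 0.21 ± 0.20 at FD19, 0.07 ± 0.08 at FD22 and -1.09 ± 0.01 at P1 (SD, n = 3 each), and that of Ppp1r2 was 0.83 ± 0.16, 0.75 ± 0.48 and -0.87 ± 0.40 in the same order of stages. Alas2 differed in its course, at -0.48 ± 0.17 at FD19, -1.42 ± 0.14 at FD22 and -1.87 ± 0.20 at P1. Col2a1 stood at -1.05 ± 0.23 at FD19, 0.41 ± 0.53 at FD22 and 0.25 ± 0.21 at P1, and Pla2g1b at -0.25 ± 0.73, -2.27 ± 0.62 and -2.23 ± 0.64, so that for both the FD22 mean was already at the P1 level. No test was made between FD22 and the other stages.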

How the data were processed

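Linear intensity signals, 1 per probe set and array, were used as the authors deposited them. They were made with GCOS 1.4, per the submitters' processing notes, and the signal algorithm is not given in the sources used here. A 2% trimmed mean of 149.6 to 149.7 in each of the 12 arrays showed common scaling. Of 31099 probe sets, 57 controls were left out. Signals above 40 (40th percentile) in at least 3 of 12 arrays kept 20894. Analysis used log2(signal + 5.4), the 10th percentile, and limma 3.58.1 in R 4.3.3 (lmFit, eBayes with a variance trend). Adjusted p-values are Benjamini-Hochberg over all probe sets kept. The share fit used 6 lysate differences with 4 residual degrees of freedom. It was tested on simulated data.

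Platform annotation gave 20826 probe sets 1 gene, 436 several and 9780 none, and probe sets without exactly 1 gene are unnamed here. Of those with 1 gene, 20758 matched the RefSeq gene table, and no symbol changed. A gene is given by its brightest probe set, by mean log2 signal. The array's few replicates limit the precision.

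Genes were named by rule: the largest called share changes, the largest total changes with a share called the same or the opposite way, share changes without a total change, list members, and the surfactant proteins, Igf2, H19, Fth1 (not among the genes tested) and Hbb. As no share was called, up to 4 genes with the smallest p were taken for each kind. Genes beyond these, and the brighter limit's use throughout, were chosen after values were seen. The experiment and the 32 lists were chosen with earlier results of these data known.

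Total and polysomal arrays of a lysate deviated together (r 0.19 to 0.46 in 6 of 6), as the design states. Equal replicate numbers of P1 and FD19 correlated by 0.31, 0.12 and 0.14 in total RNA, by 0.35, 0.05 and 0.17 in polysomal RNA and by 0.01, -0.04 and 0.02 in share, although litters were independent. Alternatives varied the constant, filter, scaling, variance model, lysates and blocks. Protein length was not analysed here.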

Additional observations from a re-analysis of the deposited data

Results flagged for a closer look

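In 11 genes the change between P1 and FD19 differed in direction between total and polysomal RNA, and the share change measures that difference. The genes were chosen by the opposite calls on the same arrays, so the p of the share is no separate test of it. The adjusted p was under 0.05 under the brighter limit for all 11, which the choice favours, and under the limit of 40 for none (limma, n = 3 lysates a stage). Share changes were -1.70 for Ppp1r2, -1.29 for Tmem123, -1.30 for Tmem179b, -1.45 for Tmem9b, -1.29 for Insig1, -1.73 for Tada2b, -1.09 for Tm2d2, -1.40 for Alas2 and -0.81 for Ppp2cb, with adjusted p of 0.0800 to 0.109 over all 20894 probe sets. They were 1.11 for Taldo1 and 1.42 for Mrpl42. Adjusted p was 0.118 for Taldo1 and 0.0962 for Mrpl42. In each of the 11 genes the 3 P1 shares lay wholly to one side of the 3 FD19 shares. Over all genes the P1 shares lay wholly above for 12.7% and wholly below for another 12.7%. Of 16 alternatives, both calls were kept in 14 for Insig1, 13 for Mrpl42, 12 for Alas2, 11 for Tada2b, 9 for Tm2d2, 9 for Ppp2cb and 4 for Tmem9b.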

How the results depend on the processing

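The count of shares called depended on settings. The constant of 25.8 (30th percentile) gave 15 probe sets higher and 108 lower, the limit of 95.4 gave 73 and 245, all 9 lysates 0 and 26, and no replicate block (lysates unmatched) 6 and 58. The constant of 0.9, no filter, quantile normalization, median centring, no variance trend, the replicate block across stages and lysates numbered 2 and 3 gave 0 and 0. Leaving out 1 lysate gave 0 higher and 0 to 1 lower. Total RNA rises with a share called lower numbered 24, 47, 13 and 17 under the first 4 settings and 0 elsewhere, leave-one-out included. The cause was not tested.

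Total RNA called lower ranged from 2108 to 2964 with 1 lysate left out. The replicate block gave 3080 higher and 3613 lower in total RNA and 3324 and 4133 in polysomal RNA. It gave 15 genes with total RNA higher and polysomal RNA lower, and 4 the reverse, which was also 4 after median centring. With 1 lysate left out these counts were 4 to 10 and 1 to 3. These counts were added after seeing the data.

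Over the alternatives of the genes described, calls were lost in 42 recomputed total changes and 49 polysomal changes, and gained in 7 and 9. For shares, 114 passed that did not over all probe sets, and none was called there to lose. Directions turned only for small changes. With lysates numbered 2 and 3, total changes were 0.0777 (Hdgfl2), 0.0225 (Ube2m), 0.0253 (Hbb), -0.18 (Pla2g12a) and 0.0531 (Loxl2), and the polysomal change of Hspa5 was -0.0885. Quantile normalization gave -0.33 for the share of Sftpc, 0.0015 for Hbb in total RNA and -0.0528 for Hspa5 in polysomal RNA. With 1 lysate left out at a time, total changes ranged from -0.3649 to 0.114 for Mertk, -0.1391 to 0.0278 for Ube2m, -0.1996 to 0.068 for Hbb and -0.1039 to 0.1544 for Pla2g12a. The polysomal change of Hspa5 ranged from -0.1028 to 0.1967, that of Hbe2 from -0.2593 to 0.0595 and the share change of Igf2 from -0.1527 to 0.0027. With 3 arrays a group, the precision of single genes is limited.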
